A study of Mus musculus with 20 samples.

Results

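The gene deletion minus inhibitor effect in Th2 cultures is a difference of 2 changes measured in every gene: the change with deletion of Dot1l (KO minus WT) and the change under the DOT1L inhibitor SGC0946 (SGC0946 minus its control compound SGC0649). It used 8 of the 20 RNA-seq libraries of the series, 2 in each of 4 groups, chosen by their labels and by no measured value. All 8 were CD4+ T cells of mouse spleen and lymph nodes, stimulated in culture for 4 days through CD3 and CD28, with both antibodies fixed to the plate at 1 µg/ml. Th2 conditions meant IL-4 and IL-2 at 10 ng/ml each and anti-IFN-γ (10 µg/ml), and the cells were then sorted as live CD4+ cells. The WT mice carried the CD4-driven Cre recombinase without floxed alleles, and the KO mice carried the same Cre with both Dot1l alleles floxed (DOT1L FL/FL), so Cre was common to all groups. The compound cultures were WT cells with 1 µM SGC0946 or 1 µM SGC0649. The other 12 libraries were naive cells and the matching Th1 cultures. Cre under the CD4 promoter acts from the thymus onwards, before the cells were put in culture, whereas the compounds were added in culture. The labels do not say whether the 2 libraries of a group came from separate mice, so the tests measure the spread between these libraries, which may be technical.

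DOT1L is the enzyme that methylates lysine 79 of histone H3, a mark laid down along the bodies of transcribed genes. SGC0946 occupies the pocket that binds the methyl donor, and SGC0649 is the related compound supplied as its inactive control. Deletion removes the protein with all its contacts, while an inhibitor acts on its catalytic step and leaves the protein in place. Th2 cells are helper T cells that make the cytokines IL-4, IL-5 and IL-13 under the transcription factor GATA3, and Th1 cells make IFN-γ under T-bet (Tbx21).

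Each of the 8 libraries held 9704500 to 13025588 counts in protein-coding genes. TMM scaling factors were 0.8777 and 0.8783 in the KO libraries and 0.9764 to 1.0797 in the other 6, and the 10 most abundant genes held 8.61% and 8.30% of KO counts and 4.59% to 5.34% elsewhere. Replicates differed beyond counting error in every group, with a chi-square per degree of freedom of 5.05 in WT, 16.2 in KO, 19.4 with SGC0649 and 8.54 with SGC0946. Levels are counts scaled to library size (CPM, with TMM factors), and effects are log2 fold changes ± SE. A positive difference means that the KO change lay above the inhibitor change.

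Dot1l itself (ENSMUSG00000061589, chromosome 10, 80755206 to 80795461, plus strand, GRCm38) stood at 148 and 164 CPM in WT, 113 and 92.5 in KO, 145 and 174 with SGC0649 and 136 and 152 with SGC0946. Both KO libraries lay below all 6 others. The deletion effect was -0.60 ± 0.11 (edgeR quasi-likelihood test, adjusted p = 0.000269) and the inhibitor effect -0.15 ± 0.11 (adjusted p = 0.486). The counts cover all exons, and which exon is floxed is not given, so transcripts that lack it are still counted here. The difference of the 2 effects, -0.46 ± 0.16 with adjusted p = 0.0368, lost its call when either WT library, KO replicate 2, SGC0649 replicate 1 or SGC0946 replicate 2 was left out (adjusted p = 0.0598 to 0.183).

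The deletion effect was called in more genes than the inhibitor effect and was larger over all genes. Of 13072 genes tested, 4179 (32.0%) differed between the 2 effects at an adjusted p under 0.05, 1961 higher (15%) and 2218 lower (17%) in the deletion. The deletion effect alone was called in 6980 genes (53.4%), 3465 higher (26.5%) and 3515 lower (26.9%). The inhibitor effect was called in 1040 (7.96%), 712 higher (5.45%) and 328 lower (2.51%). With the replicate number as a block, the deletion was called in 7216 genes and the inhibitor in 1407. The median absolute effect was 0.47 for the deletion and 0.19 for the inhibitor on the log2 scale, at nearly equal median SE (both 0.15). SGC0946 against no compound was called in 2478 genes (19%). SGC0649 against no compound was called in 88 (0.673%), with a median absolute effect of 0.20, and this count was 2402 without SGC0649 replicate 1, 2 without SGC0649 replicate 2 or WT replicate 1, 35 without WT replicate 2, 406 without KO replicate 1 and 432 without KO replicate 2. The inhibitor count rested on few libraries: it was 1966 without SGC0649 replicate 1, 426 without SGC0649 replicate 2, 330 without SGC0946 replicate 1 and 626 without SGC0946 replicate 2. The count for the difference stayed between 3225 and 4270 when any of these 8 libraries was left out.

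Of the 4179 genes, 3475 (83.2%) were called in the deletion and not in the inhibitor effect, 1574 of them higher and 1901 lower. The inhibitor effect alone was called in 87, and neither effect in 137. Genes lower in the difference had a median WT level of 12.4 CPM per kilobase of exon, against 7.55 in those higher and 5.53 in those not called. Their median span on the genome was 29.5 kilobases, against 22.3 and 21.5. The WT level is itself subtracted in the difference, so it is not independent of these classes. Across the 13072 genes the 2 effects, which share no library, had Pearson r 0.40 and Spearman rho 0.40, given as a description since genes are not independent replicates.

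**Figure D1:**
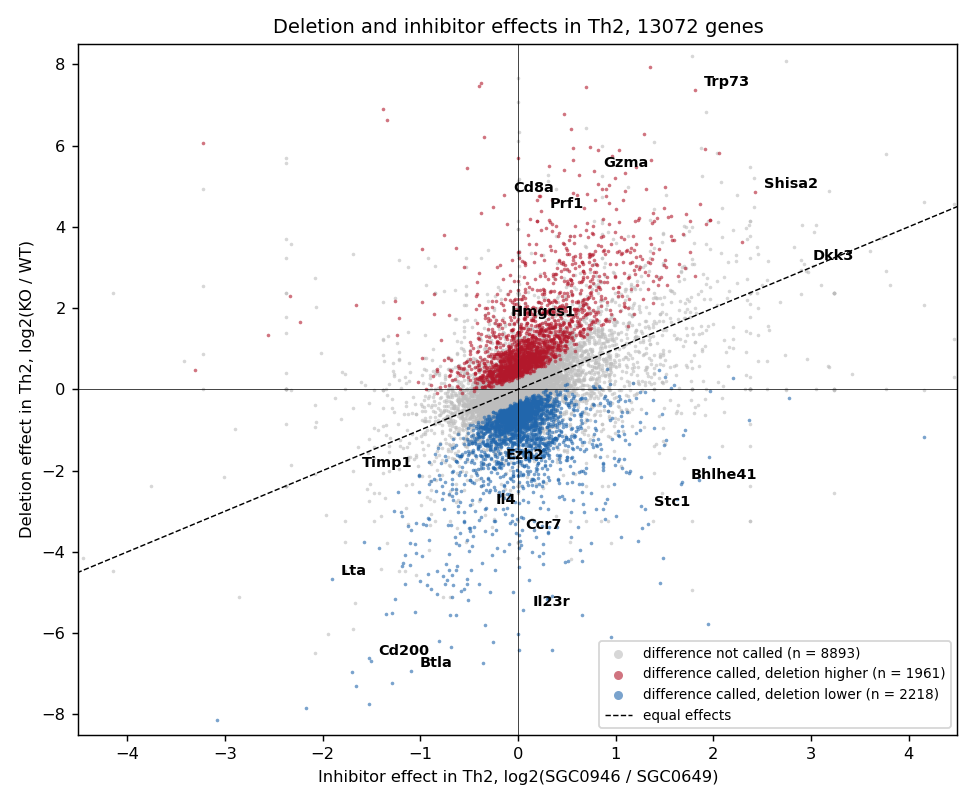
Deletion effect (y axis, log2 KO over WT) against inhibitor effect (x axis, log2 SGC0946 over SGC0649) in Th2 cultures, 1 point per gene tested, with 10 genes outside the axes. Coloured points are the 1961 genes higher and 2218 genes lower in the deletion than under the inhibitor, and most lie along the vertical axis, away from the dashed line of equal effects.

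Type 2 cytokines were lower in KO cells, and most changed less under SGC0946. Of 11 type 2 cytokine genes tested, 6 were lower in the difference (54.5%, against 17% of all genes tested) and none higher. The median difference was -1.52 (-1.42 with genes at 0 counts held at a floor of 3 counts), beside -0.01 over all genes tested. In bulk RNA, fewer cells that make a transcript and less RNA per cell cannot be told apart. Il4, the cytokine that drives Th2 differentiation (ENSMUSG00000000869, chromosome 11, 53602982 to 53618669, minus strand), was at 72.5 and 74.9 CPM in WT, 12.3 and 7.01 in KO, 65.6 and 65.5 with SGC0649 and 51.4 and 53.4 with SGC0946. Both KO libraries lay below all others, and the other 6 held between 51.4 and 74.9 CPM. Its effects were -2.91 ± 0.28 for the deletion and -0.32 ± 0.25 for the inhibitor, a difference of -2.58 ± 0.37 (adjusted p = 0.000116).

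Il5, the growth factor of eosinophils, read 88.6 and 90.2 CPM in WT, 13.5 and 8.41 in KO, 102 and 126 with SGC0649 and 82.4 and 66.9 with SGC0946. The difference was -2.40 ± 0.29 (adjusted p = 1.36e-05), and the inhibitor effect of -0.61 ± 0.19 did not pass the test (adjusted p = 0.0556). Il13, which acts on epithelium and smooth muscle and lies beside Il4 on chromosome 11, read 372 and 384 CPM in WT, 98.4 and 55.9 in KO, 305 and 534 with SGC0649 and 272 and 335 with SGC0946. KO again lay below every other library, with a difference of -1.82 ± 0.35 (adjusted p = 0.00123), although the SGC0649 libraries themselves were far apart. Areg, Lif and Il3 were also lower, Il3 with 0 KO counts against 37 in WT, at least 12.4-fold lower after deletion by the floor of 3 counts over the group. Il24, a cytokine of the IL-10 family, fell in both effects (-1.20 ± 0.13 for the deletion and -1.04 ± 0.13 for the inhibitor), and so did Csf2, which encodes GM-CSF (-1.57 ± 0.43 for the deletion and -1.54 ± 0.42 for the inhibitor). Their differences of -0.16 and -0.03 were not called (adjusted p = 0.561 and 0.985). Il10, an inhibitory cytokine, had a difference of 0.28 (adjusted p = 0.323).

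Regulators and receptors of Th2 cells were split. Of 20 tested, 3 were higher (15%) and 6 lower (30%), with a median difference of 0.00. Over all genes tested 15% were higher and 17% lower, so the share higher was no greater than among all genes. Gata3 read 343 and 299 CPM in WT, 229 and 169 in KO, 302 and 266 with SGC0649 and 335 and 330.1 with SGC0946, KO below all others, and its difference was -0.92 ± 0.19 (adjusted p = 0.00123). Lower too were Ccr4, a homing receptor of Th2 cells (-1.70 ± 0.17), Rad50, whose gene body holds the Th2 locus control region (-1.06 ± 0.13), Stat6, the signal transducer of the IL-4 receptor (-0.61), Ccr8 (-1.09) and Bhlhe41 (-3.96 ± 0.50). Ecm1, needed for Th2 cells to leave lymph nodes, was among the most abundant transcripts and higher: 2899 and 1992 CPM in WT, 15947 and 11979 in KO, 2283 and 1069 with SGC0649 and 3386 and 2147 with SGC0946, a difference of 1.79 ± 0.43 (adjusted p = 0.00567). The third called higher, Ptgdr2, a prostaglandin receptor of Th2 cells, stood under 1 CPM in all 8 libraries. Epas1 was higher in both effects and more so in the deletion (2.30 ± 0.20 for the deletion and 1.03 ± 0.19 for the inhibitor). Maf, a driver of Il4 and Il10, rose under both (1.20 ± 0.21 for the deletion and 0.98 ± 0.21 for the inhibitor), and its difference of 0.22 ± 0.29 was not called (adjusted p = 0.625).

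Type 1 genes ran the other way. Of 24 tested, 14 were higher (58.3%) and 3 lower (12.5%) in the difference (median 1.02), against 15% and 17% of all genes tested. The inhibitor effect alone was called in none upwards and 2 downwards. Tbx21, the master factor of Th1 cells (ENSMUSG00000001444, chromosome 11, 97098071 to 97115331, minus strand), read 20 and 16.6 CPM in WT, 32.8 and 47.7 in KO, 23.4 and 19.7 with SGC0649 and 25.5 and 22.8 with SGC0946. The KO libraries were the highest 2 of the 8, with a difference of 0.96 ± 0.22 (adjusted p = 0.00354). Ifng, in cultures that contained an antibody against its product, read 20.8 and 26.9 CPM in WT, 46.9 and 80.2 in KO, 16.8 and 26.6 with SGC0649 and 21.6 and 15.1 with SGC0946. KO values lay above all others, and the difference was 1.66 ± 0.43 (adjusted p = 0.00901), a call lost without SGC0649 replicate 2 (1.30, adjusted p = 0.0744).

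Receptors that make cells answer to type 1 signals were higher as well. Il18rap, the accessory chain of the IL-18 receptor, read 11.6 and 12 CPM in WT, 136 and 148 in KO, 27.7 and 15.8 with SGC0649 and 26.4 and 20.8 with SGC0946, a difference of 3.47 ± 0.31 (adjusted p = 1.19e-06). Its partner chain Il18r1 differed by 2.11 ± 0.26. Il12rb2, which completes the IL-12 receptor, differed by 0.58 ± 0.15, and Cxcr6 by 2.58 ± 0.32. The chemokines Ccl3 and Ccl4 (2.14 ± 0.39 and 2.87 ± 0.36) and the factor Eomes (2.39 ± 0.36) showed the same order, with inhibitor effects between -0.23 and -0.04. Cxcr3, a chemokine receptor of Th1 cells (-1.72 ± 0.61), Ifngr2, a chain of the IFN-γ receptor (-0.98 ± 0.18), and Lta, the gene of lymphotoxin alpha, were lower. Lta read 63.3 and 79.8 CPM in WT, 2.19 and 3.56 in KO, 44.2 and 55.3 with SGC0649 and 14.8 and 11.8 with SGC0946. It fell in both effects, -4.66 ± 0.23 for the deletion and -1.90 ± 0.19 for the inhibitor, and further in the deletion (difference -2.76 ± 0.31, adjusted p = 5.27e-06). Tnf fell in both (-1.40 ± 0.17 for the deletion and -1.32 ± 0.19 for the inhibitor), with no call for the difference (-0.08, adjusted p = 0.858).

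Killer cell genes were mostly higher in the deletion. Of 19 granzyme, perforin and killer receptor genes, 12 were higher (63.2%, against 15% of all genes tested) and none lower in the difference (median 1.90). Between 9 and 14 were higher over all alternatives tried. Gzma, a serine protease of cytotoxic granules (ENSMUSG00000023132, chromosome 13, 113093825 to 113100979, minus strand), read 530.0 and 491 CPM in WT, 20238 and 22258 in KO, 725 and 588 with SGC0649 and 1356 and 904 with SGC0946. Both KO libraries lay far above the other 6, and the difference was 4.60 ± 0.38 (adjusted p = 1.03e-06). Prf1, the pore-forming protein of the same granules, read 66.2 and 87.0 CPM in WT, 1310.1 and 1876 in KO, 97.5 and 101 with SGC0649 and 134 and 99.4 with SGC0946. Its inhibitor effect was 0.23 ± 0.17 and its difference 4.14 ± 0.25 (adjusted p = 2.07e-08).

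Gzmb, the granzyme that starts apoptosis in target cells, moved in both. It read 1314 and 1699 CPM in WT, 16838 and 21625 in KO, 1887 and 2427 with SGC0649 and 2973 and 3222 with SGC0946, so that both SGC0946 libraries lay above both SGC0649 libraries and the KO libraries lay well above these. The effects were 3.67 ± 0.16 for the deletion and 0.52 ± 0.14 for the inhibitor, and the inhibitor call (adjusted p = 0.0333) was lost without SGC0649 replicate 1 or without either SGC0946 library (adjusted p = 0.0891 to 0.146). The difference was 3.15 ± 0.21 (adjusted p = 1.86e-08). Nkg7 (2.66 ± 0.25), Klrg1 (3.23 ± 0.62), Ctsw (1.90 ± 0.27) and Cd160 (2.47 ± 0.54) also stood higher in the deletion. Granzymes have close gene copies, and 31.3% to 34.9% of alignments were multimapping and uncounted, so the split between Gzmc, Gzmf and Gzmg is uncertain.

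Markers of CD8 T cells moved with this group, in cells sorted as CD4+. Cd8a read 5.20 and 6.93 CPM in WT, 100.3 and 231 in KO, 7.0 and 9.53 with SGC0649 and 7.62 and 7.39 with SGC0946, and Cd8b1 7.85 and 9.30 in WT, 29.3 and 36.1 in KO, 7.49 and 6.51 with SGC0649 and 6.82 and 8.98 with SGC0946. Their summed level was 130 and 267 CPM in the KO libraries and 13 to 16.4 in the other 6, both genes were called, and the differences were 4.92 ± 0.57 and 1.75 ± 0.23. Cd4, the co-receptor used in the sort, went down: 584 and 543 CPM in WT, 175 and 157 in KO, 479.9 and 391 with SGC0649 and 485 and 394 with SGC0946, a difference of -1.78 ± 0.16 (adjusted p = 5.86e-07). The part of CD8 T cells in the killer cell result was not tested. NK cell markers gave no call in the difference among 6 tested, while the deletion effect was called higher in 1 and lower in none. They summed to 18.7 and 20.4 CPM in WT, 29.75 and 25.3 in KO, 32.7 and 27.3 with SGC0649 and 42.1 and 35.3 with SGC0946. The median deletion effect over these 6 genes was -0.83, and Ncr1 read 0.821 and 0.827 CPM in WT and 0.350 and 0.324 in KO. B cell markers summed to 13.8 to 47.2 CPM, with Ebf1 and Blk lower among 10 tested. The call of Ebf1 was lost without any 1 of 7 of the 8 libraries (adjusted p = 0.0504 to 0.107), and that of Blk without WT replicate 2, KO replicate 1, SGC0649 replicate 2 or either SGC0946 library (0.0695 to 0.178). Myeloid markers summed to 110 and 196 CPM in KO and 40.3 to 94.9 elsewhere, with Itgam and Fcer1g higher and Adgre1 lower among 12 tested, Siglech at 0 in all 8 libraries and Lyz2 at 0 and 0.755 CPM in KO. The Itgam call was lost without SGC0649 replicate 1 (3.18, adjusted p = 0.0604). Mast cell and basophil markers summed to 110.5 and 115.9 CPM in WT, 109.9 and 175.5 in KO, 208 and 269 with SGC0649 and 330 and 321 with SGC0946. In the difference 1 of 13 was called (Mcpt1, -2.20 ± 0.51), and 6 were lower with no compound as the control of SGC0946. The shares called in the difference were 20% of B cell, 25% of myeloid and 7.69% of mast cell and basophil markers, against 32.0% of all genes tested. The part of these cells in the results was not tested either.

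**Figure D2:**
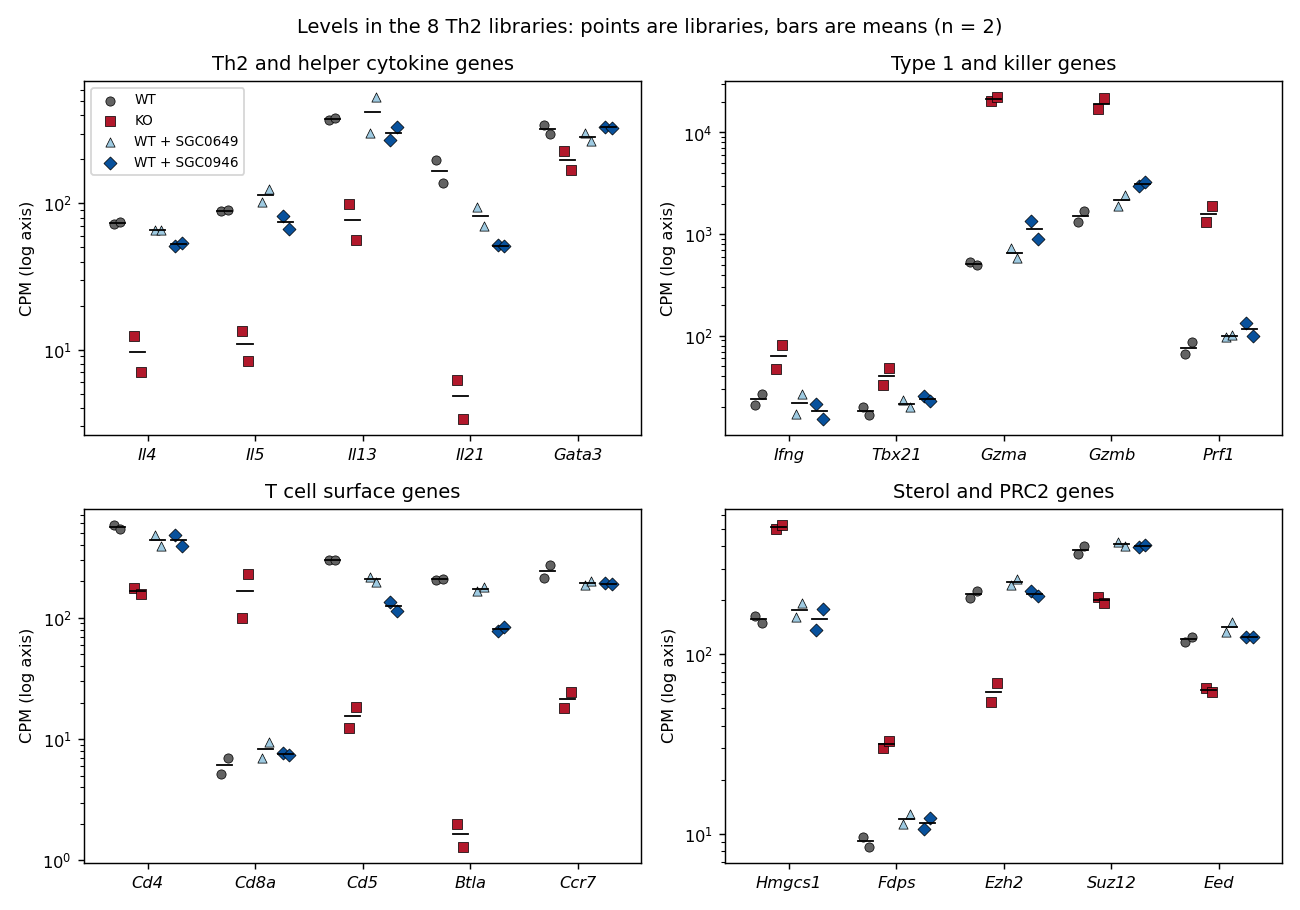
Levels of 20 genes in the 8 Th2 libraries, in CPM on log axes. Points are libraries and bars are means of 2, with KO as squares: KO levels of Il4, Cd5, Btla and Ccr7 lie below the 3 other groups, and KO levels of Gzma, Prf1, Cd8a and Hmgcs1 lie above them.

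Genes of naive and quiescent T cells were mostly lower in the deletion. Of 16 tested, 13 were lower and none higher in the difference (median -1.27), against 17% of all genes tested. Ccr7, the receptor that brings naive cells into lymph nodes, read 215 and 275 CPM in WT, 18.2 and 24.6 in KO, 185 and 203 with SGC0649 and 194 and 188 with SGC0946. Its inhibitor effect was -0.02 ± 0.15, and the difference was -3.50 ± 0.23 (adjusted p = 3.09e-08). Igfbp4, which binds insulin-like growth factors, had effects of -3.46 ± 0.18 for the deletion and 0.05 ± 0.15 for the inhibitor. Bach2, a repressor of effector genes, was called lower in both (-3.53 ± 0.21 for the deletion and -0.60 ± 0.17 for the inhibitor), although the inhibitor call (adjusted p = 0.0481) was lost without SGC0649 replicate 1 (-0.35, adjusted p = 0.198), SGC0946 replicate 2 (-0.38, adjusted p = 0.251) or either WT library.

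Within the naive list, S1pr1, Foxo1 and Klf2 rose under the inhibitor. S1pr1, the receptor for exit from lymphoid tissue, read 107 and 128 CPM in WT, 93.5 and 97.6 in KO, 116 and 92.9 with SGC0649 and 208 and 194 with SGC0946. Its SGC0946 libraries were the highest of the 8 and its KO libraries lay just below WT, with effects of -0.30 ± 0.11 for the deletion and 0.95 ± 0.10 for the inhibitor and a difference of -1.25 ± 0.15 (adjusted p = 9.48e-06). Foxo1, the transcription factor of quiescence, had effects of -0.62 ± 0.09 for the deletion and 0.38 ± 0.09 for the inhibitor, and Klf2, which switches on S1pr1, of -0.40 ± 0.24 for the deletion and 0.88 ± 0.24 for the inhibitor.

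Pan-T cell and receptor signalling genes were mostly lower, 8 of 15 (53.3%) against 3 higher (20%), with a median of -0.51. Over all genes tested 17% were lower and 15% higher. Cd5, an inhibitory co-receptor whose level follows receptor signalling, read 297 and 298 CPM in WT, 12.4 and 18.3 in KO, 216 and 198 with SGC0649 and 134 and 114 with SGC0946. The SGC0946 libraries fell between KO and the 2 control groups. Its effects of -4.29 ± 0.15 for the deletion and -0.74 ± 0.12 for the inhibitor were both called, and the difference was -3.55 ± 0.19 (adjusted p = 1.72e-09). Cd6, a related receptor, had effects of -3.71 ± 0.16 for the deletion and -0.52 ± 0.14 for the inhibitor, and its inhibitor call was lost without SGC0649 replicate 1 or SGC0946 replicate 2 (adjusted p = 0.110 and 0.187). Lower too were Cd28, the co-stimulatory receptor (-1.15), the signalling proteins Lat (-0.51) and Lck (-0.48), the adhesion receptor Cd2 (-0.55), and Cd4. Cd3e, Cd3g and Thy1 were higher (0.74 ± 0.12, 1.30 ± 0.20 and 1.62 ± 0.15). Cd3e and Cd3g encode chains of the receptor complex, and Thy1 a surface protein of all mouse T cells.

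Activation and checkpoint genes were called in 19 of 22 (86.4%, against 32.0% of all genes tested), 9 higher and 10 lower. Lower were Cd200, a ligand that dampens myeloid cells, Cd40lg, which helps B cells (-4.67 ± 0.27), Cd44, an adhesion receptor (-2.20), Tfrc, the transferrin receptor (-0.84), and the receptor-induced factors Egr2, Egr3, Nr4a1, Nr4a2, Nr4a3 and Irf4 (from -1.73 to -1.09). Egr1, of the same family as Egr2, was higher (1.0). Cd200 read 241 and 255 CPM in WT, 2.45 and 2.59 in KO, 177 and 159 with SGC0649 and 62.1 and 54.8 with SGC0946. The SGC0946 libraries lay below all 4 controls and above KO, with effects of -6.62 ± 0.20 for the deletion and -1.52 ± 0.14 for the inhibitor. Higher were Cd38, an ectoenzyme of activated and exhausted cells (3.19 ± 0.35), Entpd1 (2.15 ± 0.31), and the checkpoint receptors Lag3 (1.18 ± 0.16) and Tigit (1.0 ± 0.28). The number higher was 5 without WT replicate 2, without SGC0649 replicate 1 or without SGC0946 replicate 2.

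Follicular helper and Th17 genes were lower in 6 of 11 tested each (54.5%, against 17% of all genes tested), with medians of -1.33 and -1.13. Btla, an inhibitory receptor for HVEM (ENSMUSG00000052013, chromosome 16, 45224315 to 45252895, plus strand), read 205 and 209.6 CPM in WT, 2.01 and 1.29 in KO, 167 and 178 with SGC0649 and 77.5 and 83.8 with SGC0946. The libraries separated by group, with KO lowest, then SGC0946, then SGC0649, then WT. The effects were -6.93 ± 0.19 for the deletion and -1.10 ± 0.12 for the inhibitor, and the difference of -5.83 ± 0.23 had the lowest adjusted p among the 99 genes named by the rule (5.1e-11). Il21, the cytokine of follicular helper cells, which both lists hold, read 197 and 138 CPM in WT, 6.21 and 3.34 in KO, 94.8 and 70.0 with SGC0649 and 51.9 and 51.0 with SGC0946. SGC0649 alone lay below WT here (-1.03, adjusted p = 0.0312), and the difference was -4.42 ± 0.32 (adjusted p = 1.55e-07).

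Il23r, the receptor chain for IL-23, read 13.1 and 21.2 CPM in WT, 0.350 and 0.431 in KO, 32.5 and 24.6 with SGC0649 and 33.7 and 25.7 with SGC0946. The compound groups overlapped (0.06 ± 0.20, adjusted p = 0.911), and the difference was -5.48 ± 0.45. Il22 held 1 count in the 2 KO libraries against 182 in WT, a ratio of 183 with a counting interval of 32.4 to 7250, and 96 counts with SGC0946 against 235 with SGC0649. Il17a fell in both (-3.37 ± 0.35 for the deletion and -1.12 ± 0.28 for the inhibitor). Slamf6, an adhesion receptor of follicular and stem-like T cells, was the 1 follicular gene called higher and rose in both (2.71 ± 0.16 for the deletion and 1.45 ± 0.16 for the inhibitor). Of 12 regulatory T cell genes 50% were called, against 32.0% of all genes tested. Regulatory T cell genes were split 3 and 3 among 12 (1 higher without SGC0946 replicate 2), with Foxp3, their master factor, at 11.5 and 15.2 CPM in WT, 1.31 and 3.24 in KO, 12.2 and 11.5 with SGC0649 and 10.2 and 10.7 with SGC0946 and a difference of -2.41 ± 0.31 (adjusted p = 2.26e-05).

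Among called genes with a mean of at least 1 on the log2 CPM scale and effects that did not overlap between libraries, the 10 highest differences were those of Trp73, Fcgr3, Itga1, Itgax, Wnt9a, Cd8a, Igsf5, Ly6g, Gzma and Pilrb1, from 5.56 to 4.54. Trp73, the p53 relative p73 (ENSMUSG00000029026, chromosome 4, 154056253 to 154140208, minus strand), read 0.365 and 0.207 CPM in WT, 37.9 and 62.0 in KO, 0.690 and 0.566 with SGC0649 and 2.41 and 2.06 with SGC0946. It was under 1 CPM in WT and SGC0649 libraries, with effects of 7.37 ± 0.44 for the deletion and 1.81 ± 0.55 for the inhibitor (adjusted p of the latter = 0.052). Itga1, the collagen-binding chain of the VLA-1 integrin, read 1.19 and 1.24 CPM in WT, 62.8 and 90.6 in KO, 1.77 and 1.13 with SGC0649 and 3.01 and 1.87 with SGC0946. Itgax, the CD11c integrin chain, read 1.73 and 1.34 CPM in WT, 59.6 and 81.0 in KO, 4.14 and 2.26 with SGC0649 and 5.01 and 2.99 with SGC0946, and Fcgr3, an activating receptor for antibodies, 2.56 and 2.69 in WT, 165 and 156 in KO, 4.63 and 3.40 with SGC0649 and 6.92 and 4.96 with SGC0946. The choice of these 10 by a high, non-overlapping difference favours high KO values and small inhibitor effects. Igsf5 lost its call without SGC0649 replicate 1 (3.36, adjusted p = 0.0655).

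By the same rule the 10 lowest were Alox15, Il22, Btla, Il23r, Plce1, Cpne6, Cd200, Plcd4, Syt12 and Tppp. Alox15, the lipoxygenase of fatty acid mediators, held 2 KO counts against 162 in WT, a ratio of 81.3 (22.1 to 677, counting error only), with 129 and 108 counts under SGC0649 and SGC0946. Plcd4, a phospholipase C, read 93.0 and 80.7 CPM in WT, 1.31 and 2.48 in KO, 63.5 and 33.7 with SGC0649 and 37.5 and 25.2 with SGC0946. Cpne6, a calcium-dependent membrane protein, read 24.3 and 27.7 CPM in WT, 0.263 and 0.216 in KO, 14.5 and 11.5 with SGC0649 and 5.11 and 4.02 with SGC0946 and was called in both effects (-6.68 ± 0.39 for the deletion and -1.51 ± 0.26 for the inhibitor). Of these 10, Il22, Btla, Cpne6 and Cd200 were called lower under the inhibitor as well, a call that Il22 lost without SGC0649 replicate 2 or either SGC0946 library (adjusted p = 0.0727 to 0.247).

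Genes of cholesterol and lipid synthesis were mostly higher in the deletion. Their enzymes turn acetyl-CoA into sterols and fatty acids, and the SREBP factors switch them on when membrane sterol is low. Of 23 tested, 19 were higher (82.6%, against 15% of all genes tested) and none lower in the difference (median 0.87). The deletion effect was called higher in 20, and the inhibitor effect in none in either direction. Hmgcs1, which makes the precursor of mevalonate (ENSMUSG00000093930, chromosome 13, 119690462 to 119708086, plus strand), read 163 and 149 CPM in WT, 498 and 526 in KO, 162 and 192 with SGC0649 and 137 and 179 with SGC0946. Both KO libraries lay far above the other 6, with a difference of 1.87 ± 0.16 (adjusted p = 2.82e-07).

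Fdps, which makes farnesyl diphosphate, read 9.67 and 8.48 CPM in WT, 30.0 and 33.0 in KO, 11.3 and 12.9 with SGC0649 and 10.6 and 12.2 with SGC0946 and differed by 1.87 ± 0.21. Msmo1 (1.52 ± 0.18), Lss, the enzyme that closes the sterol rings (1.17 ± 0.16), Cyp51 (1.08 ± 0.20), Fasn, the fatty acid synthase (1.04 ± 0.19), and Insig1, the sterol-sensing inhibitor of SREBP (0.99 ± 0.14), stood higher too. Srebf2, which encodes SREBP2, differed by 0.39 ± 0.12. Idi1, Fdft1, Scd2 and Hsd17b7 were not called (0.77, 0.17, -0.07 and -0.71). Over the other fits, controls and omitted libraries 15 to 20 of the 23 were called higher, and 7 of the 23 were called with a difference of at least 2-fold.

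Since these genes moved together, their promoters were read from RefSeq (GRCm38.p6), which listed 15 of the 23 in 18 windows, each the 250 bases before a start site. The letters CCAAT, on either strand, stood in 15 of the 18 windows and in at least 1 window of each of the 15 genes, Hsd17b7 and Idi1 included, which were not called. They stood in 33.8% of all 32851 windows of this length and in 34.9% of the 12805 windows of tested genes. The letters CACCCCAC, the core of a classical sterol response element, on either strand, stood in 1 window, that of Hmgcs1, 136 bases before the start site, and in 2.58% of all windows. These are matches of letters, not measured binding sites. The windows shown are those of the 3 genes with the highest differences among the 15, and Fdps (1.87) was not among the 15. The windows run 5′ to 3′ on the gene's strand, with capitals marking CCAAT or its reverse complement ATTGG, and CACCCCAC.
Hmgcs1 (chr13:119690101-119690350, plus strand): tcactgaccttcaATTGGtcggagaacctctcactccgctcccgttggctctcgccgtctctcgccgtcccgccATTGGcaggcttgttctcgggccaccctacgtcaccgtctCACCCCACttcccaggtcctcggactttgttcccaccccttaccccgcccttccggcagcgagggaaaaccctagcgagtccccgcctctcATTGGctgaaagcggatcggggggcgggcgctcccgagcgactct
Msmo1 (chr8:64733579-64733828, minus strand): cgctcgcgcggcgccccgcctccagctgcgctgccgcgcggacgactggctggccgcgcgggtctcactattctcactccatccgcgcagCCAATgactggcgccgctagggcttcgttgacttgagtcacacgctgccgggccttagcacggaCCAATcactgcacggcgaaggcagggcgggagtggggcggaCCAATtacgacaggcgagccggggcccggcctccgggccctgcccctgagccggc
Lss (chr10:76531355-76531604, plus strand): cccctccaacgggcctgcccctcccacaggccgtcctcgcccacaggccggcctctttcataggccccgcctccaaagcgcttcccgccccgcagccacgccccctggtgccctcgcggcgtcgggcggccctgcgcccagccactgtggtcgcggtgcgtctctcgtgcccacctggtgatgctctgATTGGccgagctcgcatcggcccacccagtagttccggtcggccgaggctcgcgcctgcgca

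Other histone methylation enzymes gave 5 lower and none higher of 16 tested (median -0.24), or 31.2% called against 32.0% of all genes tested. These included 3 core subunits of PRC2, the complex that methylates lysine 27 of histone H3. Ezh2, its catalytic subunit (ENSMUSG00000029687, chromosome 6, 47530139 to 47595341, minus strand), read 205 and 226 CPM in WT, 54.0 and 69.5 in KO, 243 and 262 with SGC0649 and 224 and 210.2 with SGC0946. KO levels were far below all others, and the inhibitor effect was -0.22 ± 0.10, giving a difference of -1.59 ± 0.15 (adjusted p = 9.78e-07). Eed and Suz12 differed by -0.74 ± 0.11 and -0.88 ± 0.11, while Ezh1, the alternative catalytic subunit, did not pass the test (-0.24, adjusted p = 0.47). The other 2 were Kdm6b, a demethylase of the same residue (-0.84), and Suv39h1, a methyltransferase of heterochromatin (-0.91). Without SGC0649 replicate 1 the count was 8.

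Dot1l and its partners in transcription elongation were split, 3 higher and 4 lower of 14 (50% called against 32.0% of all genes tested). Aff3, a scaffold of elongation complexes, read 36.8 and 44.3 CPM in WT, 2.89 and 2.91 in KO, 42.2 and 40.6 with SGC0649 and 21.2 and 18.7 with SGC0946. It fell in both effects (-3.80 ± 0.18 for the deletion and -1.06 ± 0.13 for the inhibitor) with a difference of -2.74 ± 0.23 (adjusted p = 2.91e-07). Mllt10, which encodes the direct DOT1L partner AF10, differed by -0.59 ± 0.13, and Eaf1 and Ell by 0.91 ± 0.11 and 0.70 ± 0.16. Of 13 STAT and SOCS pathway genes 46.2% were called, against 32.0% of all genes tested. Jak2, a kinase of cytokine receptors, was the lowest of 13 STAT and SOCS pathway genes, of which 4 were lower and 2 higher (1 higher without WT replicate 2, KO replicate 2 or SGC0649 replicate 1), and read 1539 and 1417 CPM in WT, 327 and 283 in KO, 1418 and 1126 with SGC0649 and 1295 and 1056 with SGC0946. Its difference was -2.16 ± 0.18 (adjusted p = 1.82e-07), and Stat5b, which carries the IL-2 signal, differed by -1.47 ± 0.17.

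Several mitosis genes were lower, in a list that also varied between replicates. Of 23 replication and mitosis genes, 9 were lower (39.1%, against 17% of all genes tested) and 1, Ccne1, higher (median -1.20). The list summed to 1147 and 1897 CPM in KO, 2244 and 2921 in WT, 3177 and 4904 with SGC0649, and 4409 and 4859 with SGC0946. Bub1, a spindle checkpoint kinase, read 61.6 and 87.9 CPM in WT, 10.2 and 25.8 in KO, 108 and 137 with SGC0649 and 130.5 and 125 with SGC0946, a difference of -2.14 ± 0.38 (adjusted p = 0.00072). Replication genes such as Pcna (-0.07) and Mcm2 (0.09) were not called. The lower count was 14 without KO replicate 2, 16 without SGC0649 replicate 2, 4 without SGC0649 replicate 1, 5 without SGC0946 replicate 2, 2 when only the 8 libraries were fitted and 21 with no compound as the control of SGC0946.

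Glycolysis genes gave 10 lower (58.8%, against 17% of all genes tested) and none higher of 17 (median -0.61). The called differences ran from -1.13 to -0.32. Egln3, an oxygen-sensing hydroxylase, differed by -0.80 ± 0.12, Hk1, the entry enzyme, by -0.62 ± 0.10, and Pgk1 by -0.70 ± 0.12. Pgk1 was at 319 and 327 CPM in WT, 256 and 240.4 in KO, 279.5 and 245 with SGC0649 and 336 and 319 with SGC0946. KO and SGC0649 values lay below WT, while SGC0946 values lay near WT and above SGC0649. With no compound as the control, the inhibitor effect on Pgk1 was 0.02 (edgeR quasi-likelihood test, adjusted p = 0.8955). Interferon-stimulated genes gave 8 higher (36.4%) and 3 lower (13.6%) of 22 (median 0.47). Over all genes tested 15% were higher and 17% lower, so the share lower was no greater than among all genes. Among the higher were Mx1, an antiviral GTPase (2.26 ± 0.24), Oas1a (2.32 ± 0.38) and Irf7, the interferon-amplifying factor (1.54 ± 0.23). The lower genes were Gbp5, Usp18 and Oas3. Isg15, a ubiquitin-like protein, differed through the inhibitor side (0.00 ± 0.22 for the deletion and -0.94 ± 0.22 for the inhibitor). Among apoptosis and p53 genes, 2 of 15 were higher and 3 lower (33.3% called against 32.0% of all genes), with Bid, a BH3-only trigger of cell death (1.43 ± 0.24), against Bcl2, a guardian of survival (-0.91 ± 0.14). The lower count was 6 without SGC0649 replicate 1 and 5 without KO replicate 1.

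Smaller counts came from the amino acid and ER stress, oxidative response and HOX genes, beside 32.0% called among all genes tested. The stress genes gave 3 higher and 3 lower of 16 (37.5% called), with Hspa5 0.74 ± 0.15 and Sesn2 -0.59 ± 0.15. Oxidative response genes gave 2 higher of 9 (22.2% called, Srxn1 and Gclm) and HOX genes 1 higher of 4 (25% called, Hoxb4). Of the stress genes none were lower without WT replicate 1 (Sesn2 at adjusted p = 0.0516), 1 without KO replicate 1 or SGC0946 replicate 2 and 5 without SGC0649 replicate 2, while 5 were higher without SGC0649 replicate 1. Gclm lost its call without any 1 of 6 of the 8 libraries (0.0553 to 0.216), and Hoxb4 without WT replicate 2, KO replicate 1 or SGC0946 replicate 1 (0.0574 to 0.0719). Immediate early and heat shock genes, taken as a sign of handling, gave 1 higher and 3 lower of 10 (40% called). Hspa1a and Hspa1b, near-identical copies whose counts are uncertain, were among the lower genes, and Hspa1a read 28.8 and 41.6 CPM in WT, 2.01 and 2.48 in KO, 79.4 and 33.2 with SGC0649 and 67.8 and 11.9 with SGC0946, with a wide spread in both compound groups. Without KO replicate 1, SGC0649 replicate 2 or SGC0946 replicate 1 neither was called (adjusted p = 0.0635 to 0.0951), nor was Hspa1a without KO replicate 2 or Hspa1b without WT replicate 2 (0.0520 and 0.0538). Mitochondrially encoded genes gave no call among 6, and summed to 11467 to 15412 CPM. Erythroid markers summed to at most 2.21 CPM.

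**Figure D3:**
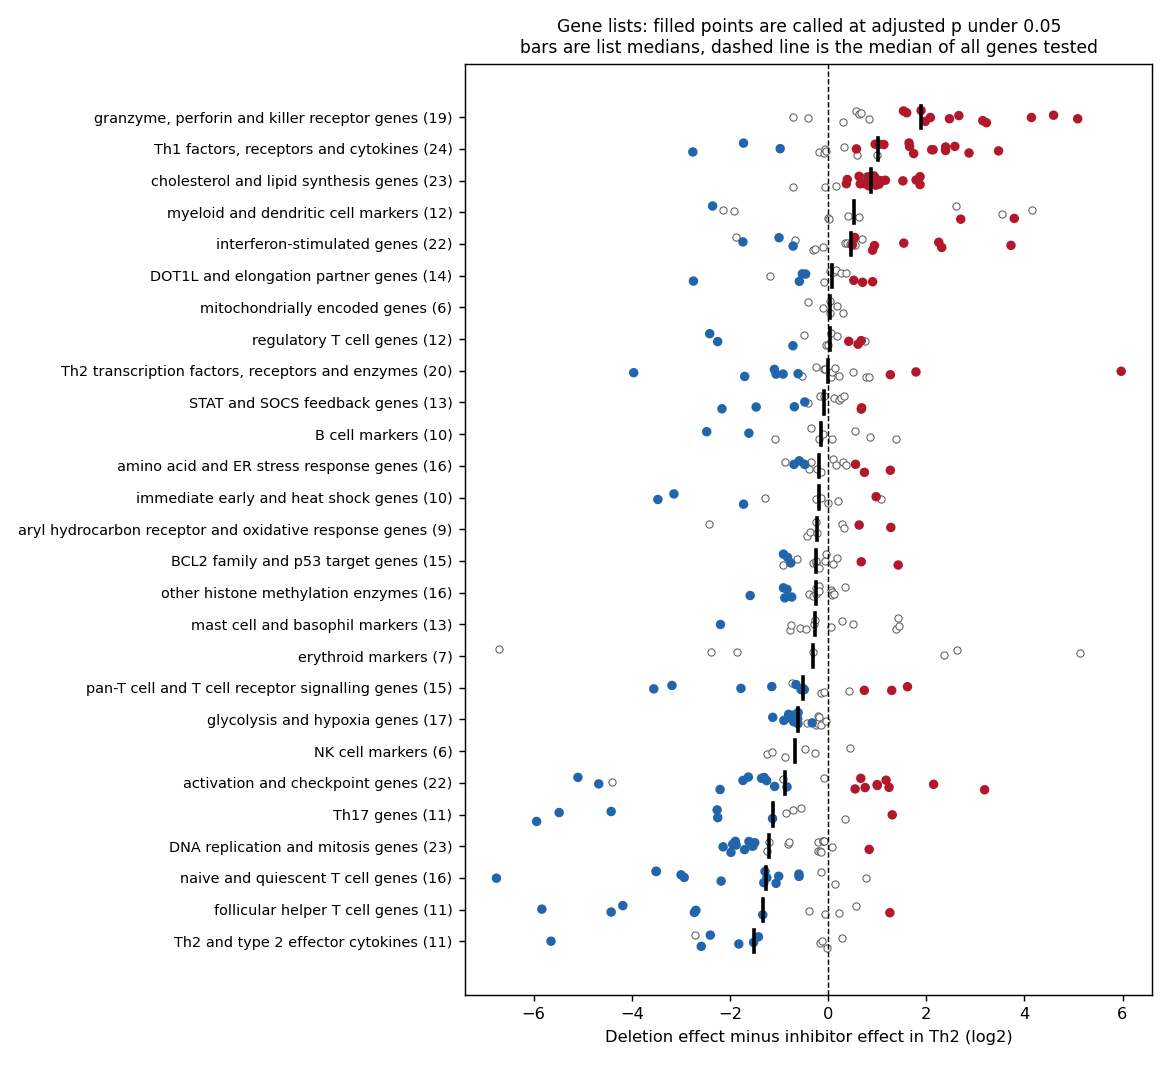
Difference of effects (x axis, log2) for every tested member of the 27 lists with at least 5 tested genes, with the number tested after each name. Filled points passed the test and black bars are list medians, from 1.90 for killer cell genes to -1.52 for type 2 cytokines, beside the dashed line at -0.01 for all genes tested.

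Where the inhibitor changed a gene, the deletion mostly changed it the same way. Of the 1040 genes called under the inhibitor, 762 (73.3%) were called in the same direction in the deletion, 521 higher and 241 lower. Over all genes tested the deletion was called higher in 26.5% and lower in 26.9%. The 762 genes made up 5.83% of all genes tested and 10.9% of the genes called in the deletion. Their median absolute effect was 1.34 in the deletion and 0.66 under the inhibitor. The deletion effect was the larger by the test of the difference in 405 and the inhibitor effect in 2, and in 355 the difference was not called. By smaller effect the leading genes were Dkk3, Shisa2, A4galt and Layn upwards and Lta, Timp1, Il1rn and Lad1 downwards.

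Shisa2, a membrane protein that restrains WNT and FGF receptors, read 1.0 and 0.827 CPM in WT, 29.9 and 24.3 in KO, 1.28 and 0.660 with SGC0649 and 5.82 and 4.67 with SGC0946. The 4 groups formed 3 levels, with SGC0946 between the controls and KO. It had effects of 4.87 ± 0.32 for the deletion and 2.43 ± 0.36 for the inhibitor and a difference of 2.44 ± 0.56 (adjusted p = 0.00343) that lost its call without SGC0649 replicate 1 (1.93, adjusted p = 0.0598). Dkk3, a secreted WNT pathway protein, read 1.28 and 0.724 CPM in WT, 6.48 and 11.1 in KO, 0.985 and 0.283 with SGC0649 and 5.82 and 3.93 with SGC0946. SGC0946 values lay just under KO values, with effects of 3.10 ± 0.54 for the deletion and 2.93 ± 0.60 for the inhibitor and a difference of 0.17 ± 0.92 whose 95% interval ran from -1.77 to 2.10. Timp1, an inhibitor of matrix proteases, read 19.7 and 28.2 CPM in WT, 4.64 and 7.44 in KO, 14.9 and 19.5 with SGC0649 and 5.01 and 5.61 with SGC0946. It fell in both (-2.0 ± 0.24 for the deletion and -1.69 ± 0.25 for the inhibitor), with an interval of -1.06 to 0.44 for the difference. For Layn, A4galt and Lad1 the difference was not called, and the intervals ran from -0.43 to 3.15, -0.32 to 3.69 and -1.95 to 0.13. Each of the inhibitor calls of Layn, A4galt, Dkk3, Il1rn and Lad1 was lost without at least 2 of the compound libraries, left out singly (adjusted p = 0.0518 to 0.343).

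In 73 genes (0.558% of all tested, 7.02% of those called under the inhibitor) the 2 effects were called in opposite directions, 62 up under SGC0946 and down in KO and 11 the reverse. Bhlhe41, a circadian repressor that supports Th2 cytokines (ENSMUSG00000030256, chromosome 6, 145858243 to 145865558, minus strand), read 31.6 and 26.9 CPM in WT, 6.91 and 4.96 in KO, 21.8 and 8.58 with SGC0649 and 60.7 and 36.2 with SGC0946. Its effects were -2.29 ± 0.37 for the deletion and 1.68 ± 0.33 for the inhibitor, and SGC0649 replicate 2 lay well below replicate 1. Stc1, a secreted glycoprotein of calcium and phosphate balance, read 12.3 and 10.2 CPM in WT, 1.49 and 1.40 in KO, 8.28 and 6.13 with SGC0649 and 17.1 and 18.2 with SGC0946. Here SGC0946 values were the highest and KO values the lowest of the 8 (-2.95 ± 0.37 for the deletion and 1.30 ± 0.30 for the inhibitor). Arhgef17, Cntnap1, Shroom3 and Atp6v0d2 had deletion effects of -1.01, -1.12, -2.87 and -1.36 and inhibitor effects of 1.03, 1.02, 1.27 and 1.5. All 6 lost the inhibitor call when at least 1 SGC0946 library was left out. Bhlhe41, Stc1, Shroom3 and Atp6v0d2 also lost it when no compound was the control (adjusted p = 0.0842 to 0.178). The deletion call of Atp6v0d2 was lost without WT replicate 1 (effect -1.07) or KO replicate 2 (-0.85). That of Cntnap1 was lost without WT replicate 2 (-0.95) or KO replicate 1 (-1.03).

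**Figure D4:**
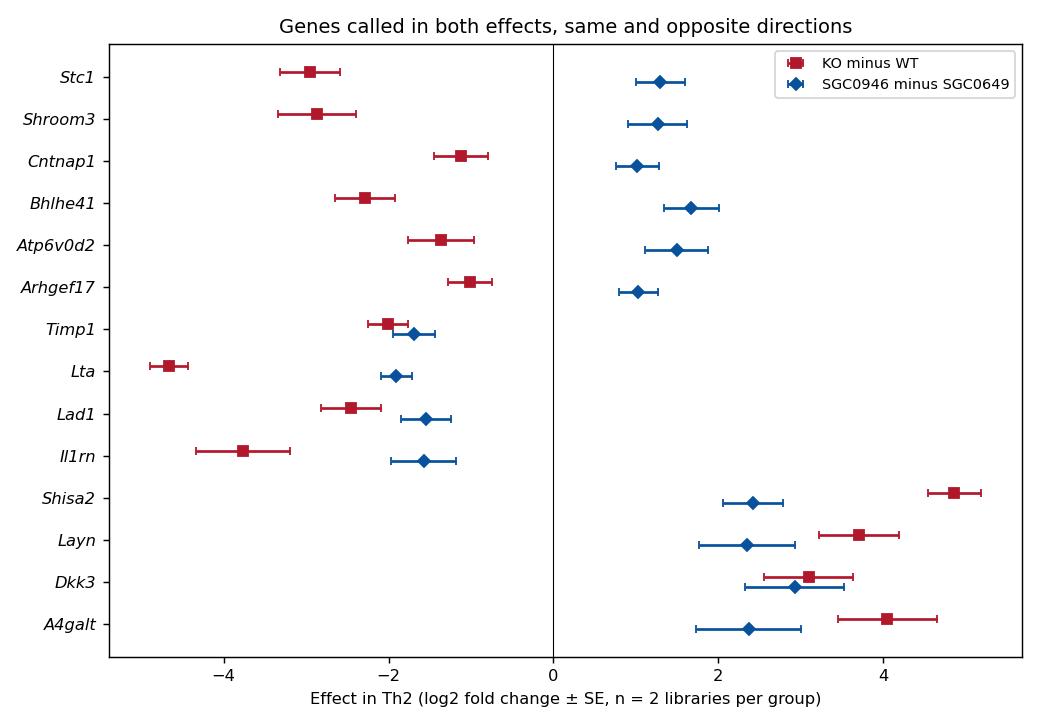
Deletion (squares) and inhibitor (diamonds) effects in Th2 as log2 fold changes with SE for the 14 genes picked for being called in both with the largest smaller effect (4 higher, 4 lower and 6 opposite), 2 libraries per group. From the bottom, 4 genes rose in both, 4 fell in both, and 6 had a deletion effect below 0 and an inhibitor effect above 0, and the squares and diamonds of Dkk3 and Timp1 lie close together.

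The same difference of effects was measured in the Th1 cultures, the closest experiment of the series, with 8 further libraries. There 4012 genes (30.7%) were called, while the inhibitor effect alone was called in 61 (0.467%). Of genes called in Th2, 1205 were called in the same direction in Th1 (28.8% of the Th2 calls and 30.0% of the Th1 calls) and 440 in the opposite direction. The difference differed between Th2 and Th1 in 3314 genes (25.4%), 1805 higher (13.8%) and 1509 lower (11.5%) in Th2, among them 1972 (47.2%) of those called in Th2.

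Cholesterol genes stood higher in the Th2 difference than in the Th1 difference. Of 23, 11 were higher in Th2 than in Th1 and none lower, and 4 of 23 were called higher within Th1, against 12.8% of all genes tested. Hmgcs1 differed by 1.87 ± 0.16 in Th2 and 0.03 ± 0.16 in Th1, a gap of 1.84 ± 0.22 (adjusted p = 4.22e-05). Ezh2 differed by -1.59 ± 0.15 in Th2 against 0.20 ± 0.15 in Th1 (adjusted p of the gap = 3.74e-05). Replication and mitosis genes were lower in Th2 than in Th1 in 16 of 23 and higher in none. Within Th1, 3 of 23 were called higher, beside 12.8% of all genes tested. Tbx21 turned its sign, from 0.96 in Th2 to -0.63 in Th1 (adjusted p of the gap = 0.000944).

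For Il5, Il13, Cd5 and Cd6 the gap to Th1 did not pass the test. Il5 and Il13 differed by -2.68 and -2.27 in Th1, with adjusted p values of 0.81 and 0.592 for the gap. Cd5 and Cd6 differed by -3.59 and -2.79 there (adjusted p of the gap = 0.943 and 0.361). Cd4 was lower in the Th1 difference (-2.43, adjusted p of the gap = 0.0409), while Cd8a stood at 1.04 against 4.92 in Th2 (adjusted p = 0.00328). Mast cell and basophil markers were higher in the Th1 difference in 13 of 13 tested and lower in Th2 than in Th1 in 7, and their part in the gaps was not tested.

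**Figure D5:**
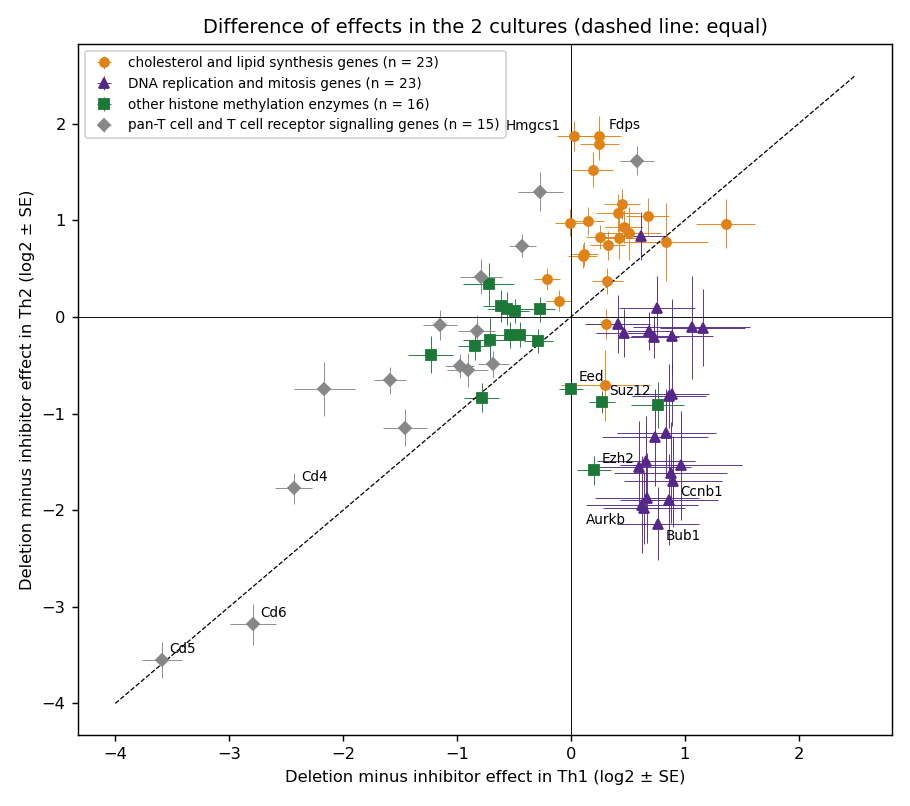
Difference of effects in Th2 (y axis) against the same in Th1 (x axis), both log2 with SE, for 4 gene lists, 1 point per gene. Cholesterol genes lie above the dashed line of equal values in most cases, mitosis genes lie to the lower right, and Cd5 and Cd6 lie near the line at the lower left.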

How the data were processed

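RNA-seq read counts per gene were taken from the authors' deposited table of raw counts for protein-coding genes, which held 22048 genes, and from a deposited table of all gene classes. Per the file headers, featureCounts 1.5.3 assigned reads to genes of Ensembl release 84 (GRCm38) with strand setting 2, and the deposited gene lengths (unit other) are summed exon bases. Among tools, edgeR and limma stand in the submitters' processing notes, and the aligner is not given in the sources used here. Between 31.3% and 34.9% of alignments were multimapping and went uncounted, which makes genes with near copies uncertain (granzymes, Hspa1a and Hspa1b, Oas and Mcpt genes, Ly6g, Pilrb1).

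All 20 libraries (10 groups of 2) were fitted with edgeR 4.0.16 in R 4.3.3, with TMM scaling, filterByExpr (minimum count 10, minimum total 15), 1 mean per group and the robust quasi-likelihood test, which left 13072 genes, 10 residual degrees of freedom and a common biological coefficient of variation of 0.0963. Genes were called at a Benjamini-Hochberg adjusted p under 0.05 over all genes tested. The SE is the absolute log2 effect divided by the square root of F. The script was tested on simulated data. Alternatives were DESeq2 1.42.0, limma 3.58.1 with voom, RLE scaling, no filter, all gene classes, the 8 libraries alone, a replicate block, no compound as the control of SGC0946, at least 2-fold, and each library left out. The omission of Th1 libraries was added after seeing the data.

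The rule named Il4, Il13, Gata3, Tbx21, Ifng and Dot1l always, the 10 highest and 10 lowest called differences (mean log2 CPM at least 1, effects not overlapping between libraries), up to 3 called members of each list by smallest adjusted p, and 14 genes called in both effects. Other genes were named from the lists after their values were seen. The comparison, the lists and the rule were chosen with earlier results of these data known. Promoter windows came from RefSeq (GRCm38.p6). Of the symbols listed, 3 were in no table and are not analysed here. Some list members, 1 of them picked by the rule, are not reported here one by one and are kept in the counts and medians of their lists.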

Additional observations from a re-analysis of the deposited data

Results flagged for a closer look

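In 50 of the 99 named genes the deletion minus inhibitor difference was not the same in Th2 and Th1 cultures by the test of the gap itself, Th2 minus Th1 (edgeR quasi-likelihood test, log2 scale, adjusted p = 7.19e-06 to 0.0409, 2 libraries per group). All values below are that gap. Over all genes tested 25.4% were called, and these genes were named for their result in Th2.

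The lists these genes came from were often mixed, with 6 higher and 7 lower of 22 activation genes, 6 higher and 2 lower of 16 naive genes, and 4 higher and 3 lower of 19 killer genes. Type 1 genes were higher in 17 and lower in 2 of 24, and receptor signalling genes higher in 9 and lower in none of 15.

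Among the named cytokine, receptor and activation genes that were lower in Th2 the gap was -3.33 for Cd200, -3.09 for Cd40lg, -2.94 for Btla, -2.93 for Il21, -5.07 for Il22, -5.05 for Il23r and -2.22 for Lta. It was -1.25 for Ccr7, -1.05 for Igfbp4, -1.02 for Jak2 and -1.61 for Rad50. Among genes of chromatin and mitosis it was -1.79 for Ezh2, -1.16 for Suz12, -0.74 for Eed, -2.90 for Bub1, -2.75 for Ccnb1 and -2.62 for Aurkb. Genes called in both effects gave -4.90 for Shroom3, -3.85 for Atp6v0d2, -3.31 for Cntnap1, -2.79 for Stc1, -2.17 for Arhgef17 and -1.76 for Timp1. The gap was -6.23 for Plcd4, -3.66 for Atf3 and -0.88 for Sesn2. Markers of other cells gave -7.05 for Mcpt1 of mast cells and -5.79 for Adgre1 of macrophages.

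Of the named killer and type 1 genes that were higher in Th2 the gap was 2.33 for Prf1, 1.95 for Gzmb, 2.58 for Il18rap, 1.72 for Il18r1 and 1.59 for Tbx21. Beside them stood the CD8 genes, with 3.87 for Cd8a and 2.65 for Cd8b1, and 0.66 for Cd4. Sterol genes gave 1.84 for Hmgcs1 and 1.63 for Fdps, and interferon genes 1.45 for Mx1 and 1.51 for Irf7. Regulatory T cell and chemokine receptor genes gave 3.42 for Gpr83, 1.81 for Foxp3, 0.97 for Tnfrsf4 and 1.12 for Ccr4, each lower in the Th1 than in the Th2 difference. The rest were 5.13 for Ly6g, 3.53 for Itgam, 3.19 for Cd38, 0.86 for Egln3, 0.87 for Xbp1 and 0.73 for Bak1. The call of Itgam was lost without WT Th2 replicate 2 or SGC0649 Th2 replicate 1, and that of Stc1 when WT replicate 1, KO replicate 2, SGC0649 replicate 2 or SGC0946 replicate 1 of the Th1 cultures was left out. Single libraries also ended the calls of Igfbp4 and Cd4 (several libraries each), of Ccr4 and Plcd4 (KO Th1 replicate 1), of Foxp3 (KO Th2 replicate 2), of Shroom3 (SGC0649 Th1 replicate 1) and of Adgre1 (SGC0649 Th1 replicate 2), with adjusted p = 0.0550 to 0.163 for these 7 genes.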

How the results depend on the processing

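The difference of effects was called in 2636 genes with the 8 libraries fitted alone, in 1815 at a difference of at least 2-fold and in 6555 with no compound as the control of SGC0946, where the WT level cancels and KO is set against SGC0946. DESeq2, limma voom, RLE scaling, no filter and all gene classes gave 3875 to 4426, and leaving out each library 3225 to 4270. The deletion effect gave 5633 to 7304 with each library left out. The inhibitor effect gave 242 with the 8 libraries alone, 2478 with no compound as control and 330 to 1966 with each library left out. The control compound effect gave 540 by DESeq2, 137 by limma voom, 207 without the filter, 523 with the replicate block and 2 to 2402 with each library left out. With the 8 libraries alone edgeR called 0 for it, with 1530 of 12268 at an unadjusted p under 0.05. The gap between Th2 and Th1 gave 2498 to 4186. The replicate numbers are those of the sample titles, and the count column of SGC0946 replicate 2 carries the number 1 in both cultures and was matched by its library number. Same-numbered libraries had deviations correlated at 0.086 to 0.698 over 6 pairs of Th2 groups, above 0.1 in 5 of 6. The highest value was that of SGC0649 with SGC0946, the 2 groups of the inhibitor effect, and the lowest that of KO with SGC0946. The titles give the same replicate names to the WT, SGC0649 and SGC0946 libraries, and no label says what these names stand for. The main fit did not take them as pairs, and would have done so had all 6 passed. With the replicate number as a block the other counts were 4532 for the difference, 7216 for the deletion, 1407 for the inhibitor and 3690 for the gap, with 14 mitosis genes lower. With all gene classes the share of higher calls for the difference was 53.5% against 46.9% in the main fit, and it was 51.1% with no compound as control. With all gene classes that share was 61.1% against 68.5% for the inhibitor and 60.4% against 36.4% for the control compound. Of 1584 values of named genes for the difference, 1440 kept a call and its direction, 64 lost a call, 4 gained one, no called value reversed, and 76 stayed without a call, 7 of them (Dkk3 and Timp1) with the sign changed. With the 8 libraries alone 5 activation, 5 interferon and 0 regulatory T cell genes were called higher. Called lower in that fit were 5 receptor signalling, 1 interferon, 2 mitosis and 0 amino acid and ER stress genes. With no compound as control 6 regulatory T cell genes were called higher and 5 interferon and 5 apoptosis genes lower, and at least 2-fold 4 interferon genes were higher and 1 glycolysis and 1 histone methylation gene lower. With 2 libraries a group, 10 residual degrees of freedom come from all 20 libraries, and an omitted library leaves a lone one assumed to vary like the rest. The cause of these shifts was not tested, apart from the smaller number of libraries or genes in the fits named.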
